A study of Caenorhabditis elegans with 35 samples.

Results

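In Caenorhabditis elegans larvae of the F4 generation, born on the first of the labelled birth days, animals that carried the normal gene but had mutant ancestors (labelled +/+ from wdr-5) were set against wild-type animals of wild-type descent (+/+ from +/+). The comparison holds 6 of the 35 arrays of the series, 3 in each group, and was chosen by the sample titles and the birth day; it covers all 20806 probe sets. RNA came from lysates of whole larvae labelled L3, the third larval stage, which were raised at 20 degrees. The F4 wdr-5/wdr-5 mutants of the same day, 3 arrays, share the model and are given beside some results. The labels name neither the mutant allele nor the crosses by which the wild-type descendants arose, and they do not say that replicates were separate cultures, so p-values may measure technical spread alone. No line, age in hours or number of animals is given either.

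The protein WDR-5.1 is a WD-repeat subunit of histone methyltransferase complexes that modify lysine 4 on histone H3, a mark of active promoters. Descendants of animals that lacked such a subunit, with the gene restored, ask whether an altered expression state outlasts the mutation, which is the question the title of the series poses as inheritance of longevity. Several gene groups that recur here are tied to developmental time: hermaphrodites make sperm late in larval life and then switch to oocytes, the intestine makes yolk proteins (vitellogenins) in the adult, and each stage secretes a cuticle from its own set of collagens.

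The targeted gene was present in both wild-type groups. On the 3 arrays each, wdr-5.1 read 8.65, 8.39 and 8.46 log2 in +/+ from wdr-5, against 8.45, 8.39 and 8.64 in +/+ from +/+. In the mutants it read 4.72, 5.01 and 4.01, below all of these. Its difference, +/+ from wdr-5 minus +/+ from +/+, was 0.01 ± 0.20 log2 (SE, n = 3 each, adjusted p = 0.981), and its sign turned under several other settings. The paralog wdr-5.2 differed by -0.07 ± 0.11, also with a sign that depended on the setting, and wdr-5.3 by 0.36 ± 0.15 (SE; adjusted p = 0.763 and 0.225), so none of the 3 genes passed the threshold. Array medians lay between 5.35 and 5.39 log2 on all 6 arrays. Pairs of arrays correlated across probe sets at 0.994 to 0.997 within a group and at 0.988 to 0.996 between the groups.

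Rises outnumbered falls among the differences that passed. A difference here is in log2 units, so that 1 stands for a 2-fold change, and "rose" and "fell" are used only where the limma test gave an adjusted p under 0.05 over all probe sets. Of the 20806 probe sets, 299 (1.44%) rose and 95 (0.457%) fell in +/+ from wdr-5, 394 (1.89%) in all. With 1 probe set for each of 17237 genes, 259 (1.5%) rose and 83 (0.482%) fell. Among these, 61 genes rose by more than 1 log2 and 2 fell by more than 1. The median over all genes went the other way, at -0.05 log2, and the median SE of a probe set was 0.10.

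The count depends strongly on which arrays estimate the spread, and the 9 F4 arrays used here gave the most calls of the 4 sets of arrays that kept both groups whole. The 6 arrays of the compared groups alone called 111 probe sets, all 17 arrays of the day called 9, and all 35 arrays called 155, of which 36.1% rose, against 75.9% above. Single arrays mattered as much. Without replicate 1 or replicate 2 of +/+ from wdr-5 the count was 4 or 5, without replicate 1 or replicate 2 of +/+ from +/+ it was 42 either way, and without replicate 3 of +/+ from +/+ it was 986. All 394 differences kept their sign under each setting that tested them, which was fixed in advance for most settings. Changing only the arrays that estimate the spread leaves a difference as it was. Where groups do not overlap, leaving out 1 array cannot turn the sign either. An exact permutation test of 3 against 3 arrays cannot give a p below 0.10, so the calls rest on the spread shared between genes.

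**Figure D1:**
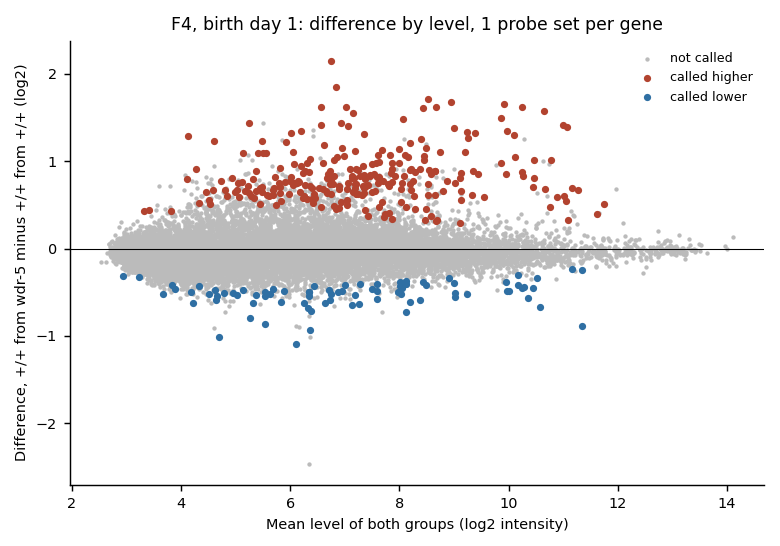
Difference on birth day 1 in F4, +/+ from wdr-5 minus +/+ from +/+ (vertical axis, log2) against the mean level of both groups (horizontal axis, log2 intensity), with 1 point per gene. The 259 genes that rose are red, the 83 that fell are blue and those that passed in neither direction are grey; rises extend to 2.15 and called falls to -1.09, and the lowest grey point is slc-25A10 at -2.47.

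The largest rises were shared by yolk protein genes, cuticle collagens and genes with no assigned name. The largest of all was that of F53H4.2, which read 7.92, 8.0 and 7.54 log2 in +/+ from wdr-5, against 6.13, 4.50 and 6.39 in +/+ from +/+ (difference 2.15 ± 0.38, SE, adjusted p = 0.0224). Its second array of +/+ from +/+ stood far below the other two. F54F7.3 followed with 7.96, 7.90 and 7.44 against 5.47, 5.91 and 6.37 (1.85 ± 0.22, adjusted p = 0.0091). Neither gene carries a functional name in the annotation used. Next came vit-2, a yolk protein gene, with 9.86, 9.01 and 9.26 in +/+ from wdr-5 and 7.85, 7.23 and 7.92 in +/+ from +/+ (1.71 ± 0.21, adjusted p = 0.00945). The other genes without a functional name among the 15 largest rises were Y45F10C.4 at 1.62, D1054.10 at 1.61 and Y62H9A.4 at 1.44, and spig-20 rose by 1.55.

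Within +/+ from wdr-5 the arrays did not sit evenly. In 14 of the 15 largest rises replicate 3 was the array nearest to +/+ from +/+, as for col-19, an adult-stage cuticle collagen, at 9.92, 9.72 and 8.83 against 7.31, 8.09 and 8.18. For vit-2 the nearest was replicate 2. In the 15 largest falls the nearest array was replicate 3 for 7 genes, replicate 2 for 5 and replicate 1 for 3. The groups did not overlap in any of the 342 called genes. Over all 17237 genes, the 3 arrays of +/+ from wdr-5 lay wholly above those of +/+ from +/+ in 9.05% and wholly below in 13.5%.

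The falls were smaller. The largest was that of oac-29, which encodes a predicted O-acyltransferase, with 5.53, 5.40 and 5.74 log2 in +/+ from wdr-5, against 6.37, 6.84 and 6.72 in +/+ from +/+ (-1.09 ± 0.15, SE, adjusted p = 0.0102). C40A11.8 read 4.23, 4.53 and 3.82, against 5.17, 4.82 and 5.62 (-1.01 ± 0.22, adjusted p = 0.0445). These are the only falls beyond 1 log2, and the C40A11.8 arrays are close to overlapping. A phospholipid scramblase family gene, scrm-4, fell by 0.94, the alpha-tubulin gene tba-8 fell by 0.80, and sax-2, a Furry-family gene that acts in neurite growth, fell by 0.71. The tightest of the 3 was sax-2, with 5.98, 6.07 and 6.04 in +/+ from wdr-5 against 6.72, 6.78 and 6.72 in +/+ from +/+. Also among the 15 largest falls were the collagens col-41, col-90 and col-128, the insulin-like peptide gene ins-35 and the zinc finger gene ztf-2, with differences of -0.89, -0.67, -0.64, -0.64 and -0.62. The other 5 were F28E10.1 at -0.86, Y48E1B.8 at -0.73, T22F7.4 at -0.68, F53C3.5 at -0.63 and F26C11.1 at -0.62.

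**Figure D2:**
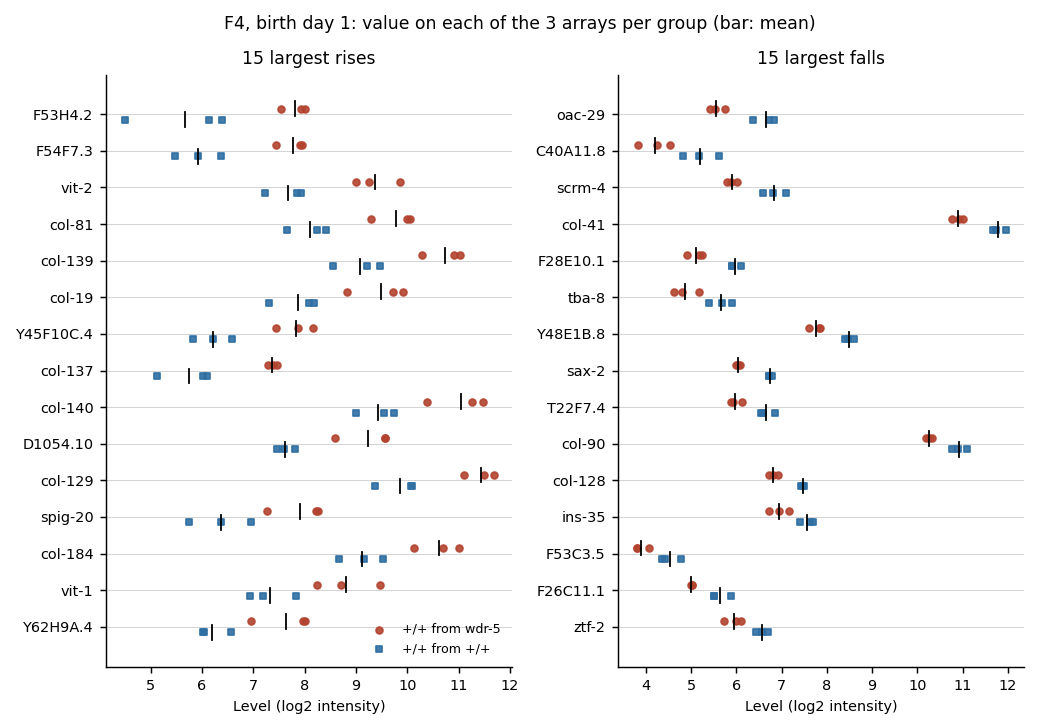
Level (log2 intensity, horizontal axis) of the 15 genes that rose most and the 15 that fell most on each F4 array of birth day 1, with red circles for the 3 arrays of +/+ from wdr-5, blue squares for the 3 of +/+ from +/+ and a black bar at each mean. In no gene do the groups overlap, while F53H4.2 shows 1 low blue array at 4.50.

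Yolk protein genes stood higher in +/+ from wdr-5 in all 6 measured members, and 3 of the 6 rose, against 1.5% of all genes. Their median difference was 1.28 log2, with a range of 0.96 to 1.71, and the median of all genes was -0.05. Besides vit-2, vit-1 read 9.47, 8.72 and 8.24 in +/+ from wdr-5 and 7.19, 6.94 and 7.83 in +/+ from +/+ (1.49 ± 0.31, SE, adjusted p = 0.0378). The third, vit-6, whose product is cleaved into separate yolk polypeptides, read 11.11, 10.79 and 10.36 against 9.60, 9.12 and 9.65 (1.29 ± 0.18, adjusted p = 0.0102). For vit-3, vit-4 and vit-5 the differences of 0.96, 1.01 and 1.26 did not pass (adjusted p = 0.141, 0.093 and 0.0511), and only in vit-3 did the arrays overlap. These near-identical paralogs may share probe sequence, so the 3 values are not independent. The number that rose ran from 1 to 5 when single arrays were left out, and was 0 with all 17 arrays of the day or all 35 arrays in the fit.

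Oocyte genes moved the same way where they passed. Of 31 measured genes for oocyte maturation, yolk uptake and the eggshell, 5 rose, beside 1.5% of all genes, and none fell, beside 0.482%, and the list median was 0.59. Without replicate 1 of +/+ from wdr-5 the median was 0.37. The 2 largest were perm-2 and perm-4, whose products build the eggshell's permeability barrier: perm-2 read 9.37, 9.18 and 8.51 log2 in +/+ from wdr-5 against 8.08, 7.46 and 7.77 in +/+ from +/+ (1.25 ± 0.21, SE, adjusted p = 0.0192), and perm-4 differed by 1.06 ± 0.20 (adjusted p = 0.0255). The eggshell proteoglycan gene cpg-1 (0.80), the Pumilio-family gene puf-11 (0.67) and cey-2, which encodes a germline Y-box RNA-binding protein (0.48), also rose, with adjusted p = 0.0479, 0.0459 and 0.044. In 20 of the 31 genes, against 9.05% of all genes, the arrays of +/+ from wdr-5 were all above those of +/+ from +/+. The 5 calls became 0 with the 6 arrays alone, with 17 or with 35 arrays, and ranged from 0 to 12 with single arrays left out, the highest without replicate 3 of +/+ from wdr-5.

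Sperm genes gave the largest share of calls among the lists of more than 10 genes. Of 68 listed genes, 41 had an unambiguous probe set, and 16 of these rose (39.0%, beside 1.5% of all genes) and none fell; the median difference was 0.54, and 40 of the 41 differences were positive. The major sperm protein gene msp-63 read 10.70, 10.79 and 10.57 log2 in +/+ from wdr-5, against 9.98, 9.67 and 9.90 in +/+ from +/+ (0.84 ± 0.08, SE, adjusted p = 0.00361). Major sperm protein is both the cytoskeleton of the crawling sperm and the signal that triggers oocyte maturation. Of the same family, msp-76 (1.05), msp-50 (0.85), msp-74 (0.83), msp-64 (0.71), msp-38 (0.70) and msp-77 (0.67) also rose. The copies of this family are nearly identical, so a probe set may read several of them and the 7 calls are not 7 separate observations.

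Sperm genes outside that family passed as well. The paternal-effect gene spe-11 read 6.84, 6.68 and 6.81 log2 in +/+ from wdr-5, against 5.65, 5.63 and 6.42 in +/+ from +/+ (0.88, adjusted p = 0.0367). The sperm protein phosphatase gene gsp-3 rose by 0.86, the sperm chromatin gene spch-1 by 0.78 and the myosin VI gene spe-15 by 0.77. The others that rose were nspd-2 (0.88), nspd-1 (0.75), ssp-10 (0.74), spe-46 (0.65) and ssp-19 (0.55). The number that rose in the list was 5 with the 6 arrays alone, 0 with 17 arrays and 1 with 35, and 1 to 23 with single arrays left out. Without replicate 1 or replicate 2 of +/+ from wdr-5 it was 1 each time.

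Of 45 genes for germline proliferation, meiosis and P granules, 1 rose, which is 2.22% beside 1.5% of all genes: glh-2, a helicase gene of the P granules, the germline's RNA granules. It read 7.18, 7.11 and 7.06 log2 in +/+ from wdr-5 and 6.66, 6.56 and 6.75 in +/+ from +/+ (0.46 ± 0.09, SE, adjusted p = 0.0255). The median of the list was 0.21, and 43 of 45 differences were positive; without replicate 2 of +/+ from +/+ or replicate 1 of +/+ from wdr-5 the median was 0.12 or 0.14. Of 50 genes for DNA replication and cell division, 1 rose (2.0%), the cyclin B gene cyb-1 (0.45 ± 0.09, adjusted p = 0.027). Their median was 0.14, and 0.08 without either of the same arrays. The cyclin D gene cyd-1, outside the list and seen after it was made, fell (-0.54 ± 0.11, adjusted p = 0.0374). In whole larvae, more cells of a type and more RNA per cell cannot be told apart.

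As levels averaged over a list and set to 0 at the mean of +/+ from +/+, the vitellogenins stood at 0.83, 1.27 and 1.75 log2 on the arrays of +/+ from wdr-5 and between -0.46 and 0.31 on those of +/+ from +/+. The sperm genes stood at 0.45 to 0.53 in +/+ from wdr-5 and at -0.23 to 0.19 in +/+ from +/+. The oocyte genes stood at 0.26 to 0.95 and at -0.20 to 0.16. These groups did not overlap in any of the 3 lists. In the sperm and oocyte lists all mutant arrays, at 0.95 to 1.11 and 1.28 to 1.77, were above all arrays of +/+ from wdr-5. For the vitellogenins the mutants stood at 1.52 to 2.2 and overlapped +/+ from wdr-5. Stage was given only as L3, and these lists are themselves markers of later stages. The part of developmental stage in the differences was not tested.

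**Figure D3:**
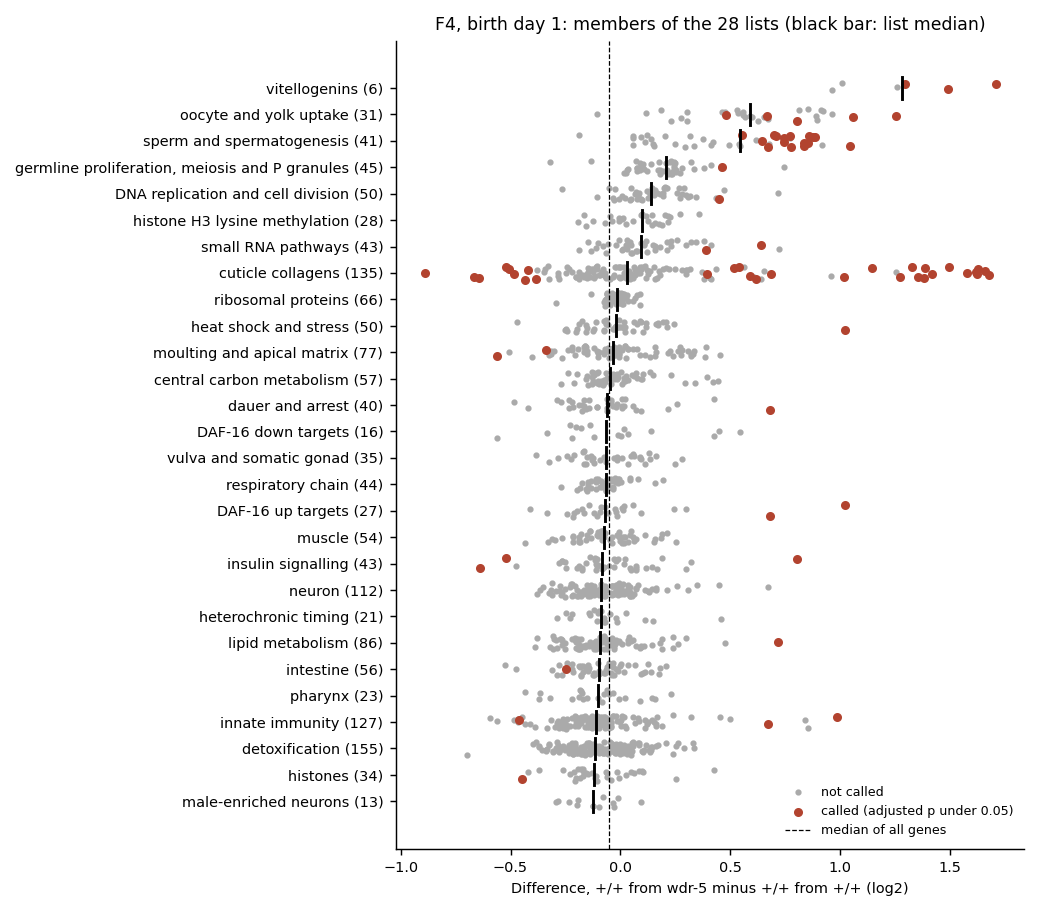
Difference on birth day 1 in F4, +/+ from wdr-5 minus +/+ from +/+ (log2, horizontal axis) for every measured member of the 28 gene lists, with the number measured in brackets; red points passed the test, grey points did not, black bars are list medians and the dashed line is the median of all genes, -0.05. Vitellogenins, oocyte and sperm genes lie mostly to the right, at medians of 1.28, 0.59 and 0.54, and cuticle collagens hold red points on both sides.

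Cuticle collagens changed in both directions. Of 135 measured, 21 rose (15.6%, beside 1.5% of all genes) and 9 fell (6.67%, beside 0.482%), and the list median was 0.03, or 0.004 without replicate 2 of +/+ from wdr-5 and 0.06 without its replicate 3. The rises were the larger, from 0.39 to 1.68, and the falls ran from -0.38 to -0.89. The highest were col-81, at 10.06, 9.99 and 9.29 log2 in +/+ from wdr-5 against 7.65, 8.43 and 8.23 in +/+ from +/+ (1.68 ± 0.23, SE, adjusted p = 0.0109), and col-139 (1.66), followed by col-19, col-137 and col-140 at 1.62 each. In these families of similar genes a probe set may read more than 1 member. Further members that rose by more than 1 log2 were col-129 (1.58), col-184 (1.5), col-122 (1.42), col-124 (1.39), col-106 (1.38), col-181 (1.35), col-88 (1.33), col-60 (1.27), col-120 (1.15) and col-119 (1.02).

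The collagen that fell most was col-41, at 11, 10.77 and 10.93 log2 in +/+ from wdr-5, against 11.67, 11.96 and 11.74 in +/+ from +/+ (-0.89 ± 0.17, SE, adjusted p = 0.0267). Its arrays within a group were closer together than those of col-81. Picked out after their values were seen, and so given as a description, are the 6 furrow collagens, which assemble in the circumferential furrows of the cuticle and give a short, fat body when lost. On all arrays of +/+ from wdr-5 each of the 6 was below all arrays of +/+ from +/+, beside 13.5% of all genes. Of the 6, 5 fell, beside 0.482% of all genes. For dpy-9 the values were 8.83, 9.07 and 9.07 against 9.45, 9.54 and 9.53 (-0.52 ± 0.08), and for dpy-7 they were 9.55, 9.80 and 9.83 against 10.20, 10.26 and 10.18 (-0.48 ± 0.09). The differences of dpy-2, dpy-8 and dpy-10 were -0.51, -0.42 and -0.38, and dpy-3, at -0.35, missed the threshold (adjusted p = 0.0519).

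Collagen calls, too, depended on the arrays in the fit. With the 6 arrays alone 12 rose and 7 fell, with 17 arrays of the day 0 passed in either direction, and with 35 arrays 2 rose and 3 fell. Leaving out replicate 1 or replicate 2 of +/+ from wdr-5 also left 0, and leaving out replicate 3 of +/+ from +/+ gave 31 and 9. Collagen genes outside the list that passed were col-20 (0.89) and col-54 (-0.62), seen after the list was made. Of 77 genes for moulting and the apical matrix, none rose and 2 fell (2.6%, beside 0.482%), the Hedgehog-related gene wrt-10 (-0.56 ± 0.10, adjusted p = 0.0225) and the lipocalin-related gene lpr-3 (-0.34 ± 0.07, adjusted p = 0.0378). Moulting genes had a median of -0.03, beside -0.05 for all genes, and its sign turned when 1 array was left out. Related genes outside the list that fell, also seen after the list was made, were lpr-4 (-0.45), lpr-6 (-0.48) and the astacin gene nas-4 (-0.47).

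**Figure D4:**
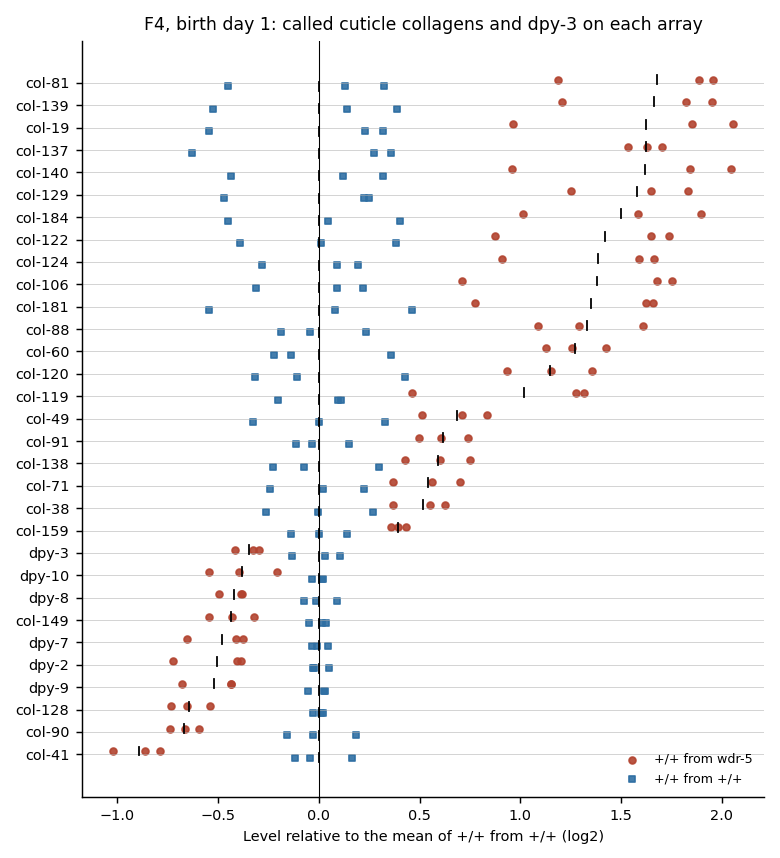
Level of the 30 called cuticle collagens and of dpy-3 on each F4 array of birth day 1, relative to the mean of +/+ from +/+ (log2, horizontal axis), with red circles for the 3 arrays of +/+ from wdr-5, blue squares for the 3 of +/+ from +/+ and black bars at means. The red circles of the 21 collagens that rose lie to the right of the blue squares, and those of the 9 that fell and of dpy-3 lie to the left, with no overlap.

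Regulators of developmental time and of the vulva and somatic gonad gave no call: 0 of 21 heterochronic genes and 0 of 35 vulval and gonadal genes passed, with medians of -0.09 and -0.07. The closest was cdh-3, a cadherin gene of the vulva and the anchor cell, at 5.34, 5.34 and 5.44 log2 in +/+ from wdr-5 against 5.78, 5.69 and 5.82 in +/+ from +/+ (-0.38 ± 0.09, SE, adjusted p = 0.0608). Among heterochronic genes the lowest p belonged to kin-20, a casein kinase gene, with a difference of 0.46 ± 0.14 (adjusted p = 0.124). The larval timing gene hbl-1 differed by -0.23 and lin-14 by -0.25.

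For the machinery that writes and reads chromatin marks, 0 of 28 histone H3 methylation genes passed, and their median was 0.10. Among them the catalytic subunit gene set-2 differed by 0.23 ± 0.10 and its partner cfp-1 by 0.20 ± 0.09 (SE; adjusted p = 0.266 and 0.258). Small RNA pathways gave 2 rises of 43 genes (4.65%, beside 1.5% of all genes). The Argonaute gene alg-3, which acts in spermatogenesis, read 7.70, 7.84 and 7.49 log2 in +/+ from wdr-5, against 7.14, 6.82 and 7.14 in +/+ from +/+ (0.64 ± 0.11, adjusted p = 0.023). The other was mut-16, which organises the sites of small RNA amplification (0.39 ± 0.09, adjusted p = 0.0466). In alg-4, the partner of alg-3, the difference of 0.72 did not pass (adjusted p = 0.0618). The Argonaute gene wago-10, outside the list and seen after it was made, rose (0.61 ± 0.11, adjusted p = 0.0255). Of 34 histone genes, only hil-2, a linker histone gene, fell (-0.45 ± 0.08, adjusted p = 0.0258), which is 2.94% beside 0.482% of all genes.

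Insulin signalling, the best-known longevity pathway of the worm, gave 1 rise and 2 falls of 43 genes (2.33% and 4.65%, beside 1.5% and 0.482% of all genes). The insulin-like peptide genes that fell were ins-35, at 6.93, 6.71 and 7.15 log2 in +/+ from wdr-5 against 7.69, 7.62 and 7.40 in +/+ from +/+ (-0.64 ± 0.13, SE, adjusted p = 0.0275), and ins-33 (-0.52 ± 0.09, adjusted p = 0.023). Among 27 genes that the transcription factor DAF-16 is known to raise, 2 rose (7.41%, beside 1.5%): sip-1, a small heat shock protein gene, by 1.02 ± 0.15 (adjusted p = 0.0122), and lea-1, which encodes a desiccation-protective protein, by 0.68 ± 0.14 (adjusted p = 0.0323). Of 16 genes that DAF-16 lowers, 0 passed. The medians of these 3 lists, -0.08, -0.07 and -0.07, were close to that of all genes.

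Metabolic, stress and defence genes changed little in number. In the detoxification list 0 of 155 genes passed, in carbon metabolism 0 of 57, in the respiratory chain 0 of 44 and among ribosomal proteins 0 of 66. Their medians were -0.12, -0.05, -0.07 and -0.01, beside -0.05 for all genes, and those of innate immunity and lipid genes were -0.11 and -0.09. All arrays of +/+ from wdr-5 were below those of +/+ from +/+ in 29 detoxification and 28 of 127 innate immunity genes, beside 13.5% of all genes. Of 127 innate immunity genes, the antimicrobial peptide gene cnc-4 (0.67) and the lectin gene clec-87 (0.98) rose and the lectin gene clec-227 (-0.46) fell, a share of 1.57% up and 0.787% down beside 1.5% and 0.482% of all genes. The acyl-CoA dehydrogenase gene acdh-8 (0.72 ± 0.15, SE, adjusted p = 0.0402) was the only call of 86 lipid genes (1.16%, beside 1.5% of all genes). In the heat shock list of 50 genes the 1 call was sip-1 again (2.0%), and in the dauer list of 40 genes it was lea-1 (2.5%). Both were rises, beside 1.5% of all genes.

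Tissue markers were close to level. None of 54 muscle, 112 neuronal, 23 pharyngeal or 13 male-enriched neuron genes passed. Of 56 intestinal genes only the ferritin gene ftn-2 did (-0.25 ± 0.05, SE, adjusted p = 0.0301), a share of 1.79% down beside 0.482% of all genes. Medians of the 5 lists lay between -0.13 and -0.07, below the -0.05 of all genes. Intestinal genes averaged -0.14 to -0.04 on the arrays of +/+ from wdr-5 and -0.02 to 0.01 on those of +/+ from +/+, so the groups did not overlap. This was not particular to the intestine. Detoxification genes averaged -0.12 to -0.07 against -0.03 to 0.02, and innate immunity genes -0.09 to -0.08 against -0.004 to 0.003. The vitellogenins, which the intestine makes, were higher in +/+ from wdr-5. Male-enriched neuron genes ran from -0.23 to -0.001 in +/+ from wdr-5 and from -0.09 to 0.07 in +/+ from +/+. The part of tissue make-up in the differences was not tested.

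The same comparison was set beside its counterparts in the F4 generation on birth day 2 and in the F5 generation on birth day 1. On birth day 2, with 3 arrays each, 8 probe sets passed (0.0385%), of which 3 rose (0.0144%) and 5 fell (0.024%); in F5 on birth day 1, with 2 against 3 arrays, 2 rose (0.00961%) and none fell. The count of 8 on day 2 was 213 with the 6 arrays of the groups alone and ran from 2 to 523 with single arrays left out, the highest without replicate 5 of +/+ from +/+. At an unadjusted p under 0.05 there were 3879, 2704 and 351 probe sets in the 3 comparisons. The F4 comparisons were fitted over the 9 F4 arrays of their day, and the F5 comparison over all 17 arrays of birth day 1. With those 17 arrays the F4 comparison of birth day 1 called 9 probe sets, with 3361 at an unadjusted p under 0.05. The counts of F4 and F5 are therefore not on the same footing. The birth days come from tables with different lower ends, so no test was made across them.

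For the leading genes the sign turned between the days. All of the 15 largest rises of day 1 had a negative difference on day 2, from -2.34 to -0.71, and in 14 of them every array of +/+ from wdr-5 was below every array of +/+ from +/+. On day 2 vit-2 read 8.49, 8.57 and 8.99 log2 in +/+ from wdr-5, against 11.04, 9.66 and 10.62 in +/+ from +/+ (-1.75 ± 0.46, SE, adjusted p = 0.0953). For col-19 the values were 8.70, 8.60 and 8.96 against 10.76, 9.83 and 9.90 (-1.41 ± 0.40, adjusted p = 0.119). Only F54F7.3 passed there among the 15, with -1.50 (adjusted p = 0.0407). All of the 15 largest falls had a positive difference on day 2, from 0.04 to 1.42, without overlap in 9. Of these falls only sax-2 passed on day 2, at 0.62 (adjusted p = 0.0407). The share of all genes without overlap on day 2 was not counted, so the 14 and the 9 stand without a background.

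The lists turned too. On day 2 the vitellogenins had a median of -1.45, the oocyte genes of -0.79, the sperm genes of -0.23 and the germline genes of -0.24, while 0 members of any of these passed. The 6 furrow collagens were between 0.37 and 0.68 on day 2, where none passed. The median of the moulting genes was 0.24, against 0.01 for all genes.

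In F5 on birth day 1, the differences of the 15 largest rises ran from -0.27 to 0.66 with a median of 0.08, and 12 were positive. Those of the 15 largest falls ran from -0.29 to 0.20, and 10 were negative. The F5 medians were 0.50 for the vitellogenins, 0.004 for the oocyte genes and -0.09 for the sperm genes, beside -0.01 for all genes. In these lists 0 members passed. Averaged over the vitellogenins, the F5 arrays stood at -1.1 to -0.40 in +/+ from wdr-5 and at -2.08 to -0.54 in +/+ from +/+, which overlap. F5 vit-2 read 7.72 and 6.51 log2 in +/+ from wdr-5, against 7.22, 6.61 and 5.55 in +/+ from +/+, groups that overlap. The test of the difference between generations, fitted over the 17 arrays of the day, passed in 0 probe sets, with 1458 at an unadjusted p under 0.05. Of the 15 largest rises, each had a larger difference in F4 than in F5, by 1.05 to 2.42, but the choice of these genes by their F4 values fixes most of that.

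Of the 5 genes with the smallest p for that generation contrast, only F28E10.1 is among the 30 largest changes of F4. The first was dpt-1, which rose in F4, at 6.54, 6.39 and 6.42 log2 in +/+ from wdr-5 against 5.76, 5.70 and 5.65 in +/+ from +/+, and in F5 read 4.93 and 4.51 against 5.96, 5.73 and 5.28. Its contrast, F4 minus F5, was 1.68 ± 0.26 (SE, adjusted p = 0.0864). The groups did not overlap in either generation, and the order of the groups was opposite. For the F-box gene fbxa-192 the contrast was 1.17 ± 0.21 and for let-2, a basement membrane collagen gene, it was -0.53 ± 0.10 (adjusted p = 0.179 for both). In F5 let-2 was 1 of the 2 probe sets that passed, at 0.64 (adjusted p = 0.00108), and in F4 it differed by 0.11. B0207.9 (0.58) and F28E10.1 (-1.06) complete the 5 smallest (adjusted p = 0.23 for both).

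**Figure D5:**
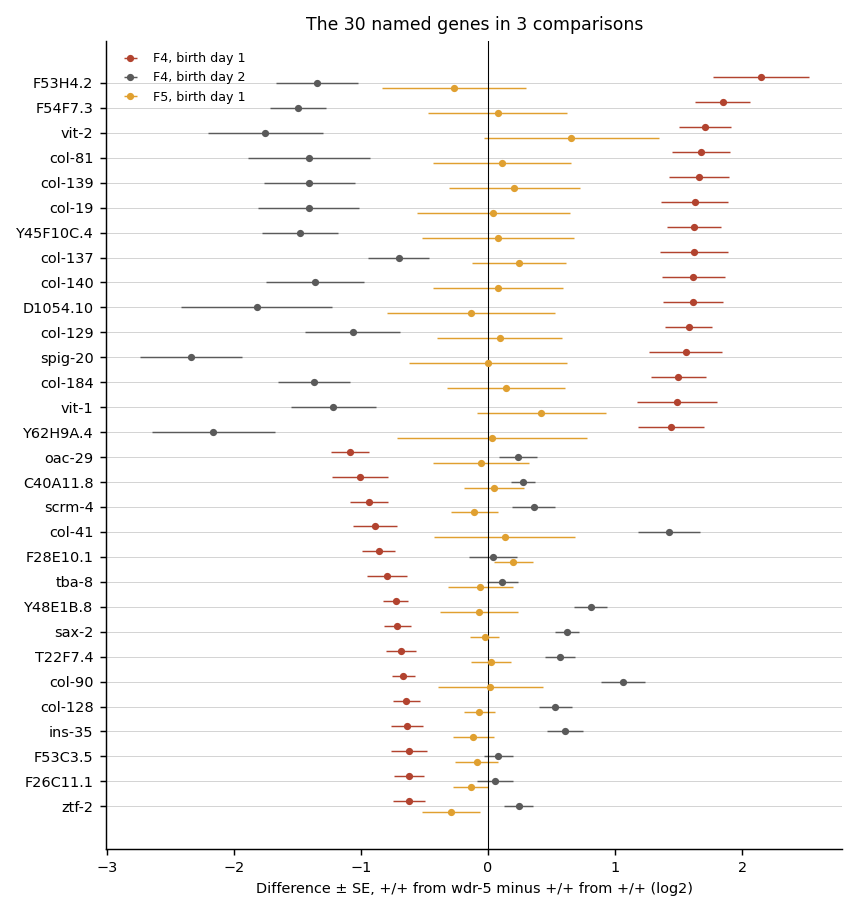
Difference ± SE (log2, horizontal axis) between +/+ from wdr-5 and +/+ from +/+ for the 15 largest rises and 15 largest falls of F4 on birth day 1 (red), in F4 on birth day 2 (grey) and in F5 on birth day 1 (orange). The genes were chosen on the red values; the grey points of all 15 rises are negative, from -2.34 to -0.71, and those of all 15 falls are positive.

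The F4 mutants of the same day are compared with the same +/+ from +/+ arrays, so the pair of comparisons shares its controls and likeness between them is no separate result. Side by side, the 15 largest rises ran from 1.81 to 3.25 in the mutants and from 1.44 to 2.15 in +/+ from wdr-5. For vit-2 the mutants read 10.32, 10.16 and 10.09 log2, above all arrays of both wild-type groups. Differences of the 15 largest falls ran from -2.05 to 0.24 in the mutants, and 3 of them were positive, those of sax-2 (0.24), ins-35 (0.18) and F26C11.1 (0.05).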

How the data were processed

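The authors deposited log2 intensities of probe sets, in 1 table for each birth day and 1 for the series. The submitters' processing notes name RMA (robust multi-array averaging). Its version and the log base are not given in the sources used here; base 2 was taken because the numbers span that range. Values in the deposited tables agreed, with a largest difference of 0. The 77 control probe sets were left out. Of 20806 probe sets, 15504 were named by accession and 4660 by symbol through a RefSeq gene table (WBcel235), 511 kept the deposited symbol and 131 had no name; 123 that read several genes were named nowhere. A gene was represented by its probe set of highest mean.

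Differences were fitted with limma 3.58.1 (lmFit, eBayes with an intensity trend) under R 4.3.3 on the 9 F4 arrays of birth day 1, two-sided, adjusted by Benjamini-Hochberg over all probe sets. The generation contrast and the F5 comparison used the 17 arrays of that day, and the comparison of birth day 2 used the F4 arrays of its own day. The fitting steps were tested on simulated data. The simulated noise was independent between probe sets, so it cannot give the error rate where probe sets of a real array deviate together. Precision is limited by 3 arrays per group. Replicate numbers were not taken as pairs, since the labels do not say that they pair arrays. Deviations of same-numbered arrays correlated at 0.0152, 0.16 and 0.169, and those of differently numbered arrays at -0.327 to 0.223. These few values do not settle whether the arrays are paired. Members, design and lists were chosen with earlier results of these data known.

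Named genes are the 15 largest rises and 15 largest falls among called genes whose arrays did not overlap, the wdr-5 genes, the vitellogenins, from each list at most 5 members by lowest p, and the 5 smallest p between generations. From called genes of a list further names are given, chosen after their values were seen. The gene that rose in the insulin signalling list is not reported here. Alternatives were the arrays in the fit, a replicate block, quantile normalization, aligned medians, no trend, robust eBayes, a filter at the 25th percentile, 1 probe set per set of identical values, and leaving out each array.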

Additional observations from a re-analysis of the deposited data

Results flagged for a closer look

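Several F4 differences between +/+ from wdr-5 and +/+ from +/+ pointed one way on birth day 1 and the other way on birth day 2, with no overlap between the groups on either day. Whether the days differ was not tested, because their tables were taken as normalized separately. The share of all genes without overlap on both days was not counted. Among genes higher on day 1, the day 2 differences in log2 were -1.35 for F53H4.2, -1.50 for F54F7.3, -1.75 for vit-2, -1.41 for col-81, -1.41 for col-139, -1.41 for col-19, -1.48 for Y45F10C.4, -1.36 for col-140, -1.82 for D1054.10 and -1.07 for col-129. They were -2.34 for spig-20, -1.37 for col-184, -1.22 for vit-1, -2.16 for Y62H9A.4, -1.57 for vit-4, -1.68 for vit-5, -1.27 for vit-6 and -0.51 for wdr-5.3, whose nearest day 1 arrays both read 6.78.

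Among genes lower on day 1, the day 2 differences were 0.23 for oac-29, 0.27 for C40A11.8, 1.42 for col-41, 0.81 for Y48E1B.8, 0.62 for sax-2, 0.57 for T22F7.4, 1.06 for col-90, 0.53 for col-128 and 0.61 for ins-35. In F5 on birth day 1 col-41 differed by 0.13, with every array of +/+ from wdr-5 above those of +/+ from +/+, opposite to F4, and the generation contrast of that gene is among the 20806 that did not pass.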

How the results depend on the processing

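The number of probe sets that passed in F4 on birth day 1, 394, was 111 with the 6 arrays of the groups alone, 9 with the 17 arrays of the day, 155 with all 35, and 4 to 986 with single arrays left out. It was 515 with a replicate block, which kept 344 of the 394, although the numbers are not known to pair arrays, and 288 without the intensity trend. The 0 of the generation contrast became 6 with 35 arrays, 2 with the block and 0 to 2 with arrays left out. The 8 of birth day 2 became 213 with 6 arrays, 2 with the block, 5 without the trend, 49 with dim probe sets left out and 2 to 523 with arrays left out; the cause was not tested. Of 58 called genes named by rule, 28 still passed with 6 arrays, 3 with 17 and 11 with 35. Without replicate 1 or replicate 2 of +/+ from wdr-5, 2 passed each time, and without its replicate 3, 51 passed. Without replicate 1, 2 or 3 of +/+ from +/+ the number was 20, 17 or 55. None turned, which was fixed in advance. The fits with 6, 17 or 35 arrays leave the differences unchanged, and leaving out a single array cannot turn groups that do not overlap. Uncalled signs turned for wdr-5.1 (-0.00821 after quantile normalization, -0.0635 to 0.0845 with arrays left out) and wdr-5.2 (0.0183, and -0.158 to 0.0286). The 3 arrays a group limit which differences can pass.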

Other observations

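Called genes outside the lists included ule-3, ule-4 and ule-5, whose products are found in the uterine lumen, with F4 day 1 differences of 1.21, 1.33 and 1.35 log2. For ule-4 the values were 10.12, 10.08 and 9.50 in +/+ from wdr-5, against 8.47, 8.40 and 8.84 in +/+ from +/+. Sperm-family genes outside the list also passed, among them msd-2 (1.11), msd-4 (0.89), ssq-2 (1.04), ssq-1 (0.74) and ssq-3 (0.61). These were picked after their values were seen.

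The lowest difference of all genes was that of slc-25A10, which encodes a member of the mitochondrial carrier family, at -2.47 ± 0.73 log2 (SE, adjusted p = 0.108). It read 5.41, 5.1 and 4.81 in +/+ from wdr-5, against 5.12, 8.93 and 8.68 in +/+ from +/+, so that 1 array of +/+ from +/+ lay among those of +/+ from wdr-5. On birth day 2 it read 5.87, 9.51 and 9.19 in +/+ from wdr-5, against 5.69, 5.68 and 5.54 in +/+ from +/+. The values fall near a low or a high level on each array, with replicates of 1 group at both.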
